A study of Mus musculus with 12 samples.

Results

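The NK receptor genes of mouse chromosome 6 were described here by the chromatin accessibility around them in thymic invariant natural killer T (iNKT) cells. The genes were Klrg1, Klrb1c, Cd69, Klre1, Klrd1, Klrk1, Klrc2, Klrc1, Klra5 and Klra1. A region counted as a member when it overlapped the body of 1 of these 10 genes (GENCODE vM21) or the 10 kb on either side, which gave 50 of the 63309 regions of 500 bp in the deposited table and 50 of its 3232 regions on chromosome 6. Of these 50 regions, 11 fell into the loci of a pair of neighbouring members and were counted for both genes, and once in counts over all members.

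ATAC-seq, in which a transposase inserts sequencing adapters into open chromatin, profiled the iNKT1, iNKT2 and iNKT17 subsets, sorted from the thymi of wild-type C57BL/6 mice or of Hivep3-/- mice backcrossed to C57BL/6, with 2 libraries for each of the 6 groups. The mice were untreated and 8 to 9 weeks old by their labels, and the study's methods name both sexes. iNKT1 cells were sorted as CD122+ ICOS-, iNKT2 cells as CD122- ICOS+ Izumo1r+ CD138- and iNKT17 cells as CD122- ICOS+ Izumo1r- CD138+ from pooled thymi, mixed for the transposition, and sorted again by ICOS and CD138 alone because the CD122 and Izumo1r stains no longer fluoresced. The sample titles number single mice and the methods describe pooled thymi, so the libraries of a group may be less independent than separate animals, and p-values measure the spread between these libraries. The Hivep3 deletion is carried by every cell of the Hivep3-/- mice and not by iNKT cells alone. The part of Hivep3 that was deleted is not given in the sources used here, so its accessibility checks no label: its 21 regions summed to between 230 and 434 in C57BL/6 and between 240 and 423 in Hivep3-/- libraries, with 0 regions at the lowest value in all libraries of either genotype.

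Receptors of the NK gene complex let lymphocytes read the state of neighbouring cells without their antigen receptor. Inhibitory members carry a cytoplasmic motif that recruits phosphatases when they meet class I molecules, and activating members pair with adaptor proteins that recruit kinases when they meet stress-induced or class I-like ligands. iNKT1 cells, the T-bet-expressing subset that makes interferon-γ, are known for sharing surface receptors such as NK1.1 with NK cells, while iNKT2 cells are known for interleukin-4 and iNKT17 cells for interleukin-17. Klrg1 lies apart from the complex on the same chromosome, and Cd69, a C-type lectin gene within the complex, codes for an early activation marker rather than an NK receptor in the narrow sense.

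The regions with the largest changes between C57BL/6 subsets at 6 loci are shown as sequence, since the results below turn on them. Each line gives the central 300 bases of the region, plus strand, from the RefSeq copy of GRCm38.p6 (mm10), and capitals mark matches to the motifs searched.
Klre1 and Klrd1 (chr6:129586889-129587188): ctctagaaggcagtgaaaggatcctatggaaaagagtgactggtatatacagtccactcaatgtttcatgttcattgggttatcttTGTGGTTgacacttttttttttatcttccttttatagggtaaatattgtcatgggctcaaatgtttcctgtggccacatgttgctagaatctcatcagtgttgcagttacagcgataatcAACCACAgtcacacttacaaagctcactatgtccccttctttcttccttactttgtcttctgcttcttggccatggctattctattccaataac
Klrc1 (chr6:129678746-129679045): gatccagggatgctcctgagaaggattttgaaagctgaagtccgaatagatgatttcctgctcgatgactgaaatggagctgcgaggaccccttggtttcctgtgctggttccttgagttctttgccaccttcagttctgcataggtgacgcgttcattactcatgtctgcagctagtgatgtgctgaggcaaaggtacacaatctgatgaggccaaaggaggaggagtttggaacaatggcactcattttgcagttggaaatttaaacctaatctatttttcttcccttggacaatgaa
Klrb1c (chr6:128790519-128790818): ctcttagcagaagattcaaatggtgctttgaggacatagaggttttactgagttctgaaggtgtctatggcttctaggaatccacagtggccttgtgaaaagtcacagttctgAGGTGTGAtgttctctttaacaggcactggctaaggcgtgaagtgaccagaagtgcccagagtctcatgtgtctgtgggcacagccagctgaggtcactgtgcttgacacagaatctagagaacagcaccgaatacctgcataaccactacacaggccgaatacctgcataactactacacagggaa
Klrk1 (chr6:129620980-129621279): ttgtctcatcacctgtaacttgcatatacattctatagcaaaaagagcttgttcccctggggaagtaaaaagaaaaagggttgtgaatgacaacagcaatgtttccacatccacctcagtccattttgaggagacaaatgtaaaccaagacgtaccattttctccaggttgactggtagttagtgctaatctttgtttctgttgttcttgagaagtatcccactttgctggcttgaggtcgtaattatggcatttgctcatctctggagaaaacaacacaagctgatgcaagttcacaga
Klrg1 (chr6:122284873-122285172): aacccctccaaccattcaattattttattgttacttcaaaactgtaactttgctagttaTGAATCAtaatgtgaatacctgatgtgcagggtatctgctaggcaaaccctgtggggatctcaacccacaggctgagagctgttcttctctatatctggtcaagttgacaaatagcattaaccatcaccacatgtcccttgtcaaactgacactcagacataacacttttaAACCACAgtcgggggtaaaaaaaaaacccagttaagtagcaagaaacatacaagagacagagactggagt
Klrc2 (chr6:129643165-129643464): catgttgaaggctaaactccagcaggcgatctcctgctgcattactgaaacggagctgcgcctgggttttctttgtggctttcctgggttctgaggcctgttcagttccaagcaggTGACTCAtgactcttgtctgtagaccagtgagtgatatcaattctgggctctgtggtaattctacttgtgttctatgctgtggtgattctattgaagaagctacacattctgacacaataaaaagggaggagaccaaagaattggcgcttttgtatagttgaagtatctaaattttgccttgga

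The motifs were AGGTGTGA (T-box), AACCACA (Runt), AGGAAGT (ETS), TTCAAAG (TCF), TGANTCA (bZIP) and GGGANTTCC (NF-kB), searched on both strands over the full 500 bp, and none of them lies within another. The sequence between Klre1 and Klrd1 held 2 Runt matches, the one beside Klrb1c held 1 T-box match, the one upstream of Klrg1 held 1 Runt and 1 bZIP match, and the one assigned to Klrc2 held 1 bZIP match. The stretches printed for Klrc1 and Klrk1 held none of these letters, which says nothing about the factors. Over the 50 regions, 14 held a Runt match (28.0%, against 17.4% of all regions) and 13 a bZIP match (26.0%, against 15.9%). An ETS match was found in 7 (14.0%, against 21.3%), a TCF match in 6 (12.0%, against 11.2%), a T-box match in 2 (4.0%, against 2.91%) and an NF-kB match in 1 (2.0%, against 2.81%). These shares are descriptions, with no test.

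The receptor genes arose by duplication, and reads were trimmed to 50 bp, so each region was searched for 50-base windows with an identical copy elsewhere in the genome. The 31 member regions with no such window included every region of Cd69 and 15 of the 16 from Klre1 to Klrk1. In 9 regions at least 20% of the windows were repeated, 7 of them in the Klrc2 and Klrc1 loci. The pair of regions at the start of Klrc3, which fall within 10 kb of Klrc2, shared 262 and 384 windows with the pair at the start of Klrc2 itself, so insertions there cannot be fully assigned to 1 of these paralogs. The Klrc1 promoter and the region 1.66 kb upstream of it had 0 repeated windows.

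Values below are log2 normalized insertions per kilobase, in which each unit is a doubling. A region was called accessible in a group when its mean on the linear scale was at least 5, and a change was called at an adjusted p under 0.1 (limma, Benjamini-Hochberg over all tested regions) with at least a 3-fold difference. The lowest value differs between libraries, from −4.31 to −2.58, and values near it are coarse. The Hivep3-/- iNKT17 libraries had the highest lowest values, −3.06 and −2.58. Over the member regions accessible in a group, its 2 libraries differed by a median of 0.11 to 0.19, and over those below that level by 0.45 to 0.67 in the iNKT2 and iNKT17 groups. With 2 libraries against 2, an exact permutation test cannot give a p under 0.333, so calls rest on the spread that limma shares across regions and groups.

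Accessibility at the NK receptor genes was largely that of iNKT1 cells. Of the 50 regions, 49 were accessible in both iNKT1 groups (98.0%, against 79.4% of all regions), 17 in both iNKT2 groups (34.0%, against 79.4%) and 21 in both iNKT17 groups (42.0%, against 80.5%). Accessibility in the iNKT1 groups and in no other was found for 26 regions (52.0%, against 4.02%), and accessibility in all 6 groups for 16 (32.0%, against 65.0%). In 37 regions all 4 iNKT1 libraries lay above the 8 others, where 16.2% of all regions did so. In bulk libraries, fewer cells with an open region and less opening per cell cannot be told apart.

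**Figure D1:**
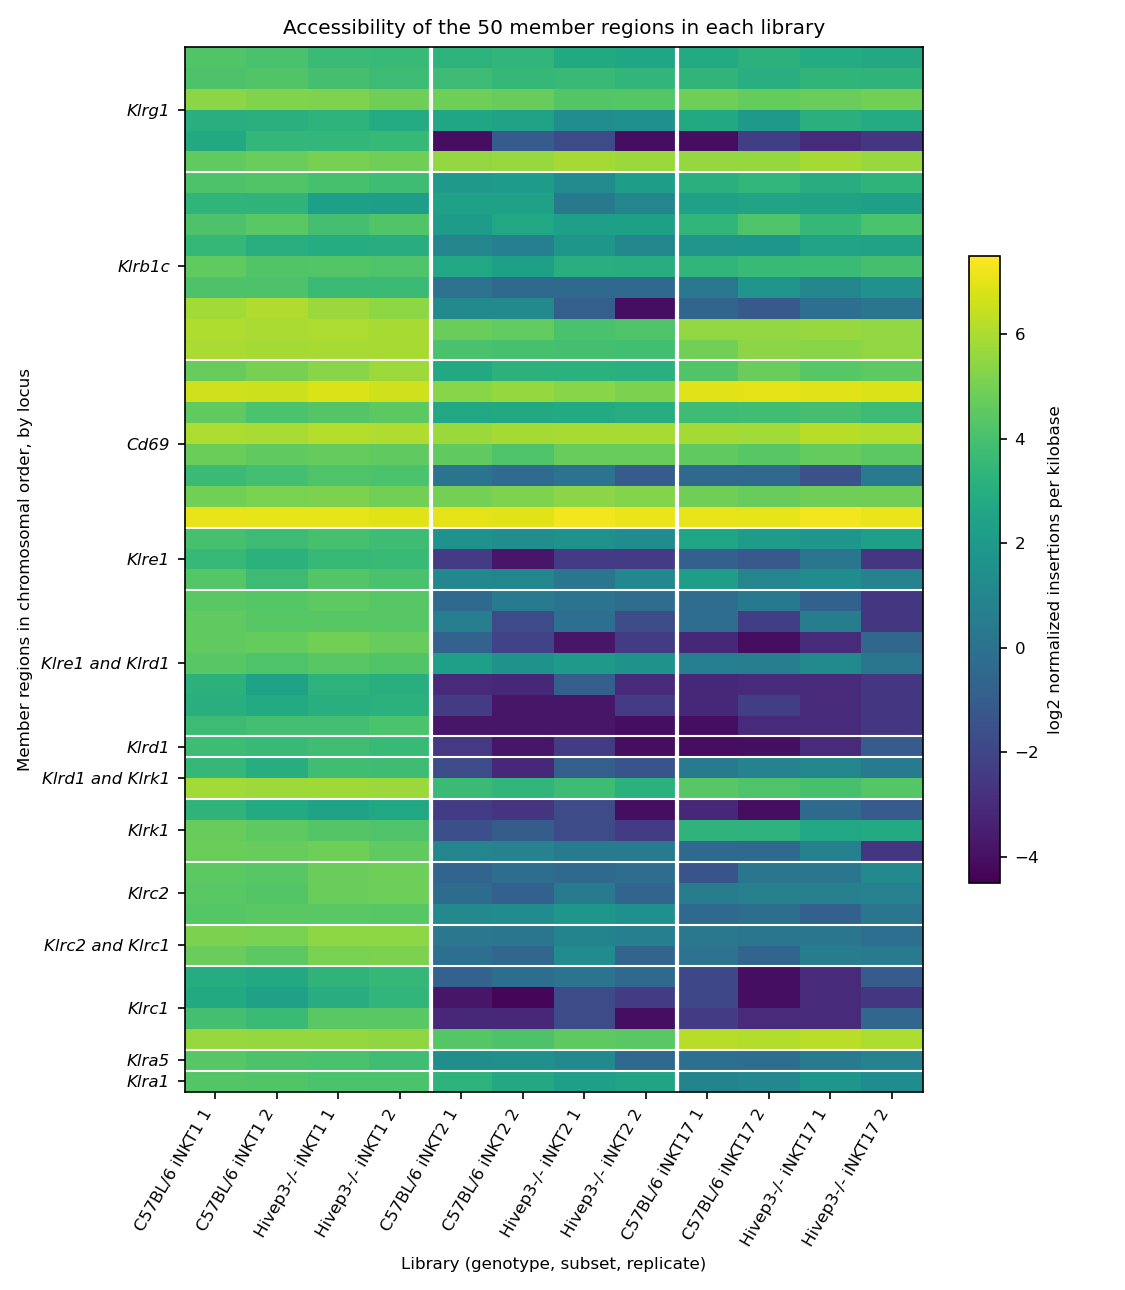
Heat map of the 50 member regions (rows, in chromosomal order and grouped by locus) in the 12 libraries (columns, by subset, with C57BL/6 before Hivep3-/-), coloured by log2 normalized insertions per kilobase. The 4 iNKT1 columns are higher than the iNKT2 and iNKT17 columns in most rows from Klre1 to Klra1, while most Klrg1 and Cd69 rows are high in all 12 columns.

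In C57BL/6 cells, 36 of the 50 regions were higher in iNKT1 than in iNKT2 cells (7.33% of all tested regions were) and 0 were lower (8.71%). The median change of the member regions was 2.89 on the log2 scale, against 0.01 over all tested regions. Against iNKT17 cells, 27 were higher in iNKT1 (9.72% of all) and 0 lower (10.8%), with a median of 2.88 against 0.01. At the 1 region of this comparison with both iNKT17 libraries at their lowest value, an intron of Klrd1, no fold is given, and the median without it was 2.63. Both comparisons share the iNKT1 libraries. All 50 regions were accessible in C57BL/6 iNKT1 cells, whereas 30 were below that level in iNKT2 and 28 in iNKT17 cells. Those regions entered the tests through iNKT1 cells alone, so the filter itself set iNKT1 as the higher group there. With a pseudocount of 5, which shrinks changes at low values, 20 regions were called against iNKT2 cells. Among the 31 regions with no repeated window, 20 were called against iNKT2 and 14 against iNKT17 cells. The median changes of these 31 were 2.329 against iNKT2 and 1.497 against iNKT17 cells, below the medians of all 50. In the 9 regions with at least 20% of windows repeated, the medians were 4.823 and 4.902. In the remaining 10 regions the medians were 2.034 and 2.118. The part of repeated windows in these differences was not tested.

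Between iNKT2 and iNKT17 cells of C57BL/6, 23 member regions were accessible enough to be tested, and 1 was higher in iNKT2 (7.72% of all) and 2 in iNKT17 cells (8.49%), shares near or below those of all regions. The 3 regions were the Klra1 promoter, higher in iNKT2, and the Klrk1 promoter and a region upstream of Klrc1, higher in iNKT17 cells. The count was 6 without the second C57BL/6 iNKT2 library and 5 without the first C57BL/6 iNKT17 library, 9 with no filter on low values, 6 with a filter on the mean of all libraries, 10 at 2-fold and 1 with a pseudocount of 5.

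**Figure D2:**
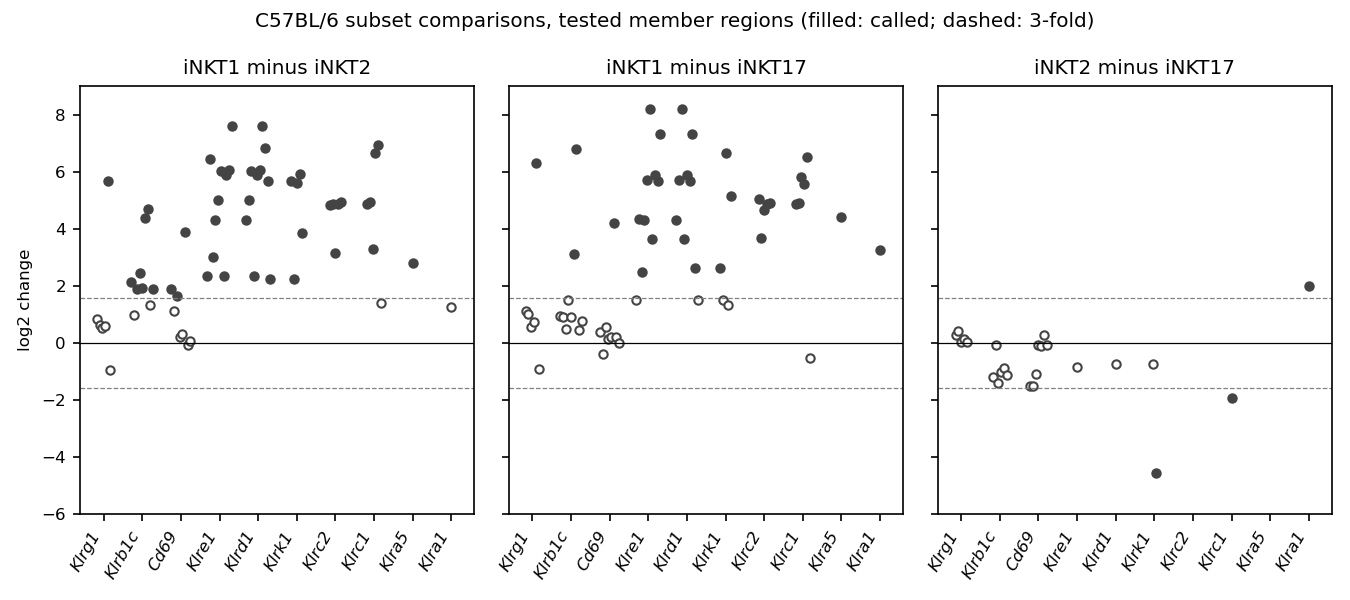
Change of each tested member region between C57BL/6 subsets, by gene, on the log2 scale (filled points were called, dashed lines mark 3-fold, and the 1 region with both libraries of a group at the lowest value is left out). In both comparisons of iNKT1 cells all filled points lie above 0, whereas the iNKT2 against iNKT17 panel has 1 filled point above and 2 below.

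Klre1 and Klrd1 lie head to tail at the left end of the cluster. Klrd1 codes for CD94, the invariant partner of NKG2A and NKG2C, and Klre1 for a receptor chain that pairs with the Klri products. All 10 regions of each locus were higher in iNKT1 than in iNKT2 cells, with medians of 5.46 for Klre1 and 5.78 for Klrd1, and 9 of 10 at each locus were higher than in iNKT17 cells. Most of these regions belong to both loci, so the counts and medians of the loci are not independent.

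The region between both genes (chr6:129586789-129587288, intergenic), whose sequence carries the 2 Runt matches, had values of 4.57 and 4.66 in C57BL/6 and 4.93 and 4.70 in Hivep3-/- iNKT1 libraries. In iNKT2 cells the values were −0.72 and −2.10 in C57BL/6 and −3.79 and −2.39 in Hivep3-/- iNKT2 libraries. In iNKT17 cells they were −3.12 and −4.05 in C57BL/6 and −3.06 and −0.55 in Hivep3-/- iNKT17 libraries, of which 1 C57BL/6 and 1 Hivep3-/- library were at their lowest value. All 4 iNKT1 libraries lay far above the other 8, and the others scattered over several units near the lowest level. Between C57BL/6 subsets the change was 6.02 (SE 0.83, adjusted p = 5.45e-05) against iNKT2 and 8.19 (SE 0.83, adjusted p = 2.32e-06) against iNKT17 cells.

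At the Klrd1 promoter (chr6:129591485-129591984) the values were 4.36 and 4.22 in C57BL/6 and 4.39 and 4.22 in Hivep3-/- iNKT1 libraries. In iNKT2 cells the values were 2.26 and 1.60 in C57BL/6 and 1.98 and 1.65 in Hivep3-/- iNKT2 libraries. The iNKT17 values were 0.66 and 0.64 in C57BL/6 and 1.21 and 0.19 in Hivep3-/- iNKT17 libraries. The subsets did not overlap here, with iNKT2 cells between the other two. iNKT1 cells were higher by 2.36 (SE 0.34, adjusted p = 8.12e-05) than iNKT2 and by 3.64 (SE 0.34, adjusted p = 1.17e-06) than iNKT17 cells in C57BL/6, while the difference between iNKT2 and iNKT17 cells, both below the level for accessible regions, was not tested.

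The highest region near an annotated start of Klre1 (chr6:129583007-129583506), at a start site within the gene, had 4.57 and 4.38 in C57BL/6 and 4.39 and 4.41 in Hivep3-/- iNKT1 libraries. Its iNKT2 values were 0.63 and −1.72 in C57BL/6 and −0.13 and −1.72 in Hivep3-/- iNKT2 libraries, and its iNKT17 values were −0.21 and −2.29 in C57BL/6 and 0.57 and −2.58 in Hivep3-/- iNKT17 libraries. The iNKT1 libraries lay close together, and the others spread widely without overlapping them. The change was 5.02 (SE 1.00, adjusted p = 0.000916) against iNKT2 and 5.72 (SE 1.00, adjusted p = 0.000257) against iNKT17 cells.

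Klrk1 codes for NKG2D, an activating receptor for stress-induced ligands, and its promoter separated all 3 subsets. At this region (chr6:129622479-129622978) iNKT1 values were 4.71 and 4.54 in C57BL/6 and 4.29 and 4.22 in Hivep3-/- libraries. The iNKT17 values were 3.31 and 3.26 in C57BL/6 and 2.70 and 2.83 in Hivep3-/- libraries, and the iNKT2 values were −1.59 and −0.97 in C57BL/6 and −1.72 and −2.39 in Hivep3-/- libraries. iNKT17 cells thus held an open Klrk1 promoter at a lower level than iNKT1 cells, and iNKT2 cells did not. In C57BL/6 cells the change came to 5.90 (SE 0.32, adjusted p = 3.6e-08) for iNKT1 against iNKT2, 1.34 (SE 0.32, adjusted p = 0.00296) for iNKT1 against iNKT17, under 3-fold, and −4.56 (SE 0.32, adjusted p = 1.66e-07) for iNKT2 against iNKT17 cells.

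In Hivep3-/- cells the same promoter was lower in iNKT2 than in iNKT17 cells with a change of −4.82 (SE 0.32, adjusted p = 1.3e-07). The largest Klrk1 change was at an exon 1.45 kb inside the gene (chr6:129620880-129621379), the fourth sequence shown, where iNKT1 values were 3.31 and 2.83 in C57BL/6 and 2.39 and 2.65 in Hivep3-/- iNKT1 libraries. The iNKT2 values there were −2.39 and −2.69 in C57BL/6 and −1.72 and −4.05 in Hivep3-/- iNKT2 libraries, and the iNKT17 values were −3.12 and −4.05 in C57BL/6 and −0.41 and −1.06 in Hivep3-/- iNKT17 libraries. No library of another subset reached the iNKT1 range, and the iNKT17 libraries of the 2 genotypes did not overlap. Every iNKT17 value there was below the accessible level, 1 C57BL/6 library was at its lowest value, and the genotype change in iNKT17 cells was not tested. iNKT1 cells were higher by 5.61 (SE 0.83, adjusted p = 9.7e-05) than iNKT2 and by 6.65 (SE 0.83, adjusted p = 1.52e-05) than iNKT17 cells in C57BL/6.

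Klrc1 and Klrc2 code for NKG2A, an inhibitory chain, and NKG2C, an activating chain, both of which pair with CD94 to read a class I-like molecule. Of the Klrc2 regions, 5 of 5 were higher in iNKT1 than in either other subset, and of the Klrc1 regions 5 of 6. The Klrc1 promoter (chr6:129678646-129679145), with 0 repeated windows, had values of 3.94 and 3.67 in C57BL/6 and 4.43 and 4.45 in Hivep3-/- iNKT1 libraries. Values in the iNKT2 subset were −3.12 and −3.12 in C57BL/6 and −1.72 and −4.05 in Hivep3-/- iNKT2 libraries, and the iNKT17 values were −2.41 and −3.02 in C57BL/6 and −3.06 and −0.55 in Hivep3-/- iNKT17 libraries. The iNKT1 values were the only ones above the level for accessible regions, and Hivep3-/- iNKT1 values lay above those of C57BL/6 with a change of 0.64 (SE 0.90, adjusted p = 0.833) that was not called. This SE pools all 6 groups, so it includes the scatter of the other subsets near the lowest value. The fitted C57BL/6 change was 6.92 (SE 0.90, adjusted p = 3.07e-05) against iNKT2 and 6.52 (SE 0.90, adjusted p = 3.41e-05) against iNKT17 cells.

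The region 1.66 kb upstream of Klrc1 (chr6:129680385-129680884), chosen after its values were seen, was the exception of the locus. It had 6.23 and 6.10 in C57BL/6 and 6.27 and 6.02 in Hivep3-/- iNKT17 libraries and 5.66 and 5.61 in C57BL/6 and 5.59 and 5.50 in Hivep3-/- iNKT1 libraries. iNKT2 libraries gave 4.34 and 4.14 in C57BL/6 and 4.54 and 4.44 in Hivep3-/- iNKT2 libraries. iNKT17 cells were thus highest and iNKT2 cells lowest without overlap, and the called C57BL/6 difference was −1.93 (SE 0.12, adjusted p = 6.87e-08) for iNKT2 against iNKT17 cells. The change between iNKT1 and iNKT17 cells was −0.53 (SE 0.12, adjusted p = 0.00204), under 3-fold.

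At the Klrc2 promoter (chr6:129660347-129660846) iNKT1 values were 5.14 and 5.07 in C57BL/6 and 5.46 and 5.47 in Hivep3-/- iNKT1 libraries. The iNKT2 values were 0.27 and 0.21 in C57BL/6 and 0.90 and 0.66 in Hivep3-/- iNKT2 libraries, and the iNKT17 values were 0.28 and 0.20 in C57BL/6 and 0.19 and −0.10 in Hivep3-/- iNKT17 libraries. iNKT2 and iNKT17 cells overlapped, far below iNKT1 cells, and 58.1% of the windows of this region have a copy elsewhere. The C57BL/6 changes were 4.86 (SE 0.27, adjusted p = 4.27e-08) and 4.86 (SE 0.27, adjusted p = 1.12e-08). The largest change of the Klrc2 locus was at the start of Klrc3 (chr6:129643065-129643564), the last sequence shown, with 4.82 (SE 0.49, adjusted p = 4.1e-06) and 5.03 (SE 0.49, adjusted p = 1.59e-06) against iNKT2 and iNKT17 cells, and 61.2% of its windows are repeated.

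**Figure D3:**
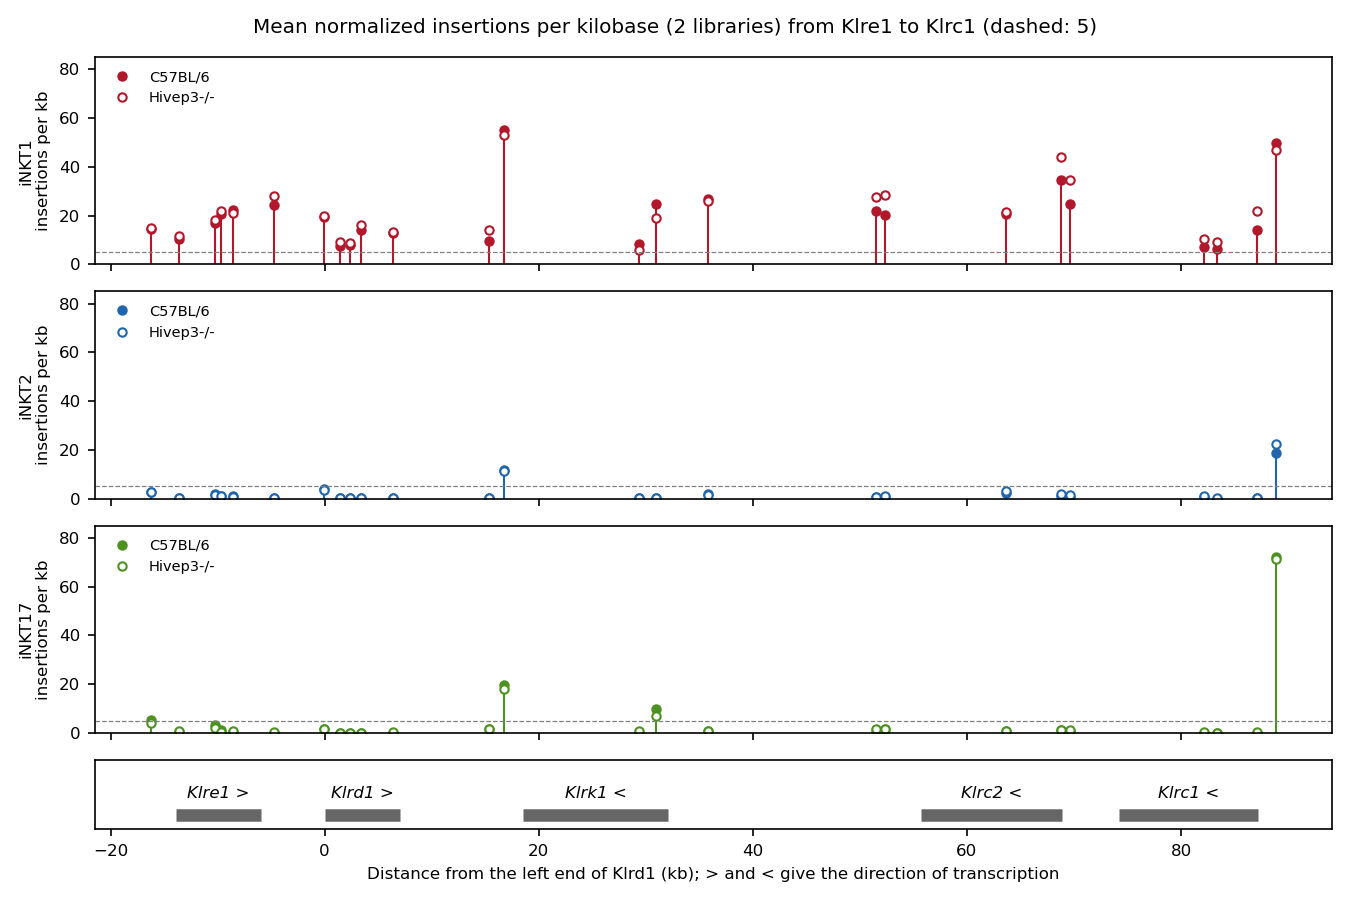
Mean of 2 libraries for each member region from Klre1 to Klrc1, on the linear scale in normalized insertions per kilobase, against the distance in kb from the left end of Klrd1 (filled C57BL/6, open Hivep3-/-, dashed line at 5, gene bodies below). All 25 regions lie above the dashed line in both iNKT1 groups, against 2 in each iNKT2 group and 4 and 3 in C57BL/6 and Hivep3-/- iNKT17 cells.

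Klrb1c codes for NK1.1, the activating receptor by which NK cells and mature iNKT1 cells of this strain are identified. At its locus 7 of 9 regions were higher in iNKT1 than in iNKT2 cells, but 2 of 9 than in iNKT17 cells, and iNKT17 values often lay between those of the other subsets. The promoter (chr6:128788358-128788857) had 4.58 and 4.25 in C57BL/6 and 4.28 and 4.19 in Hivep3-/- iNKT1 libraries. The iNKT17 values were 3.41 and 3.58 in C57BL/6 and 3.68 and 3.94 in Hivep3-/- iNKT17 libraries, and the iNKT2 values were 2.67 and 2.30 in C57BL/6 and 3.05 and 2.95 in Hivep3-/- iNKT2 libraries. The 3 subsets did not overlap. The C57BL/6 change was 1.93 (SE 0.20, adjusted p = 4.41e-06) for iNKT1 against iNKT2 and 0.92 (SE 0.20, adjusted p = 0.00137) for iNKT1 against iNKT17 cells, the latter under 3-fold.

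The largest Klrb1c change was 1.45 kb upstream of the start, in an intron of the overlapping gene Gm44511 (chr6:128790419-128790918), the sequence with the T-box match. The iNKT1 values were 5.82 and 6.05 in C57BL/6 and 5.69 and 5.48 in Hivep3-/- iNKT1 libraries. In iNKT2 cells the values were 1.23 and 1.23 in C57BL/6 and −0.88 and −4.05 in Hivep3-/- iNKT2 libraries, and the iNKT17 values were −0.59 and −1.15 in C57BL/6 and −0.10 and 0.19 in Hivep3-/- iNKT17 libraries. The iNKT1 libraries stood far above all others, and 55.4% of the windows of this region are repeated elsewhere. Between C57BL/6 subsets the change was 4.71 (SE 0.70, adjusted p = 9.4e-05) against iNKT2 and 6.80 (SE 0.70, adjusted p = 2.46e-06) against iNKT17 cells.

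The Ly49 genes Klra5 and Klra1, which code for Ly49E and the class I-binding inhibitory receptor Ly49A, each had 1 region, at the promoter. At Klra5 (chr6:129917528-129918027) iNKT1 values were 4.37 and 4.16 in C57BL/6 and 4.06 and 3.83 in Hivep3-/- iNKT1 libraries. Values in the iNKT2 subset were 1.42 and 1.53 in C57BL/6 and 1.20 and −0.41 in Hivep3-/- iNKT2 libraries, and the iNKT17 values were −0.10 and −0.17 in C57BL/6 and 0.38 and 0.82 in Hivep3-/- iNKT17 libraries. iNKT1 cells were higher by 2.79 (SE 0.43, adjusted p = 0.000136) than iNKT2 and by 4.40 (SE 0.43, adjusted p = 1.72e-06) than iNKT17 cells in C57BL/6, and no iNKT2 or iNKT17 group reached the accessible level.

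At Klra1 (chr6:130386760-130387259) the order was iNKT1, then iNKT2, then iNKT17 cells, with no overlap between subsets. The values were 4.28 and 4.23 in C57BL/6 and 4.09 and 4.12 in Hivep3-/- iNKT1 libraries. iNKT2 libraries gave 3.25 and 2.75 in C57BL/6 and 2.30 and 2.49 in Hivep3-/- iNKT2 libraries, and the iNKT17 values were 0.91 and 1.11 in C57BL/6 and 1.82 and 1.35 in Hivep3-/- iNKT17 libraries. It was the 1 member region accessible in the iNKT1 and iNKT2 groups and in no iNKT17 group. In C57BL/6 cells the change came to 1.26 (SE 0.25, adjusted p = 0.001) for iNKT1 against iNKT2, under 3-fold, 3.25 (SE 0.25, adjusted p = 2.02e-07) for iNKT1 against iNKT17 and 1.99 (SE 0.25, adjusted p = 2.37e-05) for iNKT2 against iNKT17 cells.

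Klrg1, an inhibitory receptor for cadherins, and Cd69, which holds activated cells in tissue by removing an egress receptor from the surface, had few called regions. Of 6 Klrg1 regions, 1 was higher in iNKT1 than in either other subset, and of 8 Cd69 regions, 3 were higher than in iNKT2 and 1 than in iNKT17 cells. The Klrg1 region lay 2.14 kb upstream of the start (chr6:122284773-122285272), with 2.81 and 3.46 in C57BL/6 and 3.45 and 3.55 in Hivep3-/- iNKT1 libraries. The iNKT2 values were −4.05 and −1.06 in C57BL/6 and −1.72 and −4.05 in Hivep3-/- iNKT2 libraries, and the iNKT17 values were −4.05 and −2.29 in C57BL/6 and −3.06 and −2.58 in Hivep3-/- iNKT17 libraries, where both Hivep3-/- libraries were at their lowest value. The iNKT1 libraries alone were above the accessible level, and 29 of the 451 windows are repeated. The fitted C57BL/6 change was 5.69 (SE 1.07, adjusted p = 0.000627) against iNKT2 and 6.30 (SE 1.07, adjusted p = 0.000212) against iNKT17 cells.

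A further Klrg1 region, 9.07 kb upstream of the gene and nearest to the start of Gm6637 (chr6:122291703-122292202), ran the other way and was chosen after its values were seen. iNKT1 values were 4.58 and 4.77 in C57BL/6 and 5.03 and 4.88 in Hivep3-/- iNKT1 libraries, and the 8 other libraries lay between 5.57 and 5.90. The C57BL/6 change was −0.93 (SE 0.12, adjusted p = 3.51e-05) against iNKT2 cells, under 3-fold.

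The Cd69 promoter (chr6:129275185-129275684) was open in all libraries, with 6.04 and 5.98 in C57BL/6 and 6.18 and 6.08 in Hivep3-/- iNKT1 libraries. In iNKT2 cells the values were 5.69 and 5.88 in C57BL/6 and 5.92 and 5.93 in Hivep3-/- iNKT2 libraries, and the iNKT17 values were 5.87 and 5.84 in C57BL/6 and 6.22 and 6.11 in Hivep3-/- iNKT17 libraries. All 12 values lay between 5.69 and 6.22. The iNKT17 range overlapped those of both other subsets, while the iNKT1 libraries lay just above the iNKT2 libraries. The C57BL/6 change between iNKT1 and iNKT2 cells was 0.22 (SE 0.09, adjusted p = 0.0699), under 3-fold. The Cd69 region with the largest change lay 7.07 kb upstream (chr6:129282253-129282752), with 3.70 and 3.91 in C57BL/6 and 4.20 and 4.11 in Hivep3-/- iNKT1 libraries. The iNKT2 values there were 0.14 and −0.33 in C57BL/6 and 0.06 and −1.01 in Hivep3-/- iNKT2 libraries, and the iNKT17 values were −0.41 and −0.41 in C57BL/6 and −1.52 and 0.40 in Hivep3-/- iNKT17 libraries. The changes were 3.90 (SE 0.56, adjusted p = 7.66e-05) against iNKT2 and 4.21 (SE 0.56, adjusted p = 2.67e-05) against iNKT17 cells. A region 9.14 kb upstream, outside the rule for regions described singly, lay between 6.98 and 7.28 in all 12 libraries.

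Summed over the regions of a locus, the iNKT1 libraries of 8 of the 10 genes lay above all 8 other libraries (11.2% of all loci did so), Klrg1 and Cd69 being the exceptions. Locus totals were tested over 15382 protein-coding loci with no minimum fold, neighbouring loci sharing regions. In C57BL/6 all 10 members were higher in iNKT1 than in iNKT2 cells and 0 were lower (46.3% of loci were called in either direction), with a median of 2.72 against −0.05 over all loci. Against iNKT17 cells 9 were higher and 0 lower (49.1%), the exception being Cd69 with 0.05 (SE 0.05, adjusted p = 0.492), and the median was 2.48 against −0.02.

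Among these totals Klrc2 had the largest change against iNKT2 cells, 4.39 (SE 0.20, adjusted p = 1.43e-08), with 6.98 and 6.88 in C57BL/6 and 7.27 and 7.30 in Hivep3-/- iNKT1 libraries. Its iNKT2 totals were 2.54 and 2.55 in C57BL/6 and 3.34 and 2.73 in Hivep3-/- iNKT2 libraries. Klrg1 had the smallest, 0.19 (SE 0.08, adjusted p = 0.0873), with iNKT1 totals of 6.90 and 6.91 in C57BL/6 and 6.88 and 6.69 in Hivep3-/- iNKT1 libraries and iNKT2 totals of 6.72 and 6.70 in C57BL/6 and 6.66 and 6.52 in Hivep3-/- iNKT2 libraries. The Klrg1 ranges of these subsets overlapped over both genotypes, whereas the Klrc2 ranges lay far apart.

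Between iNKT2 and iNKT17 cells the members divided, with 2 totals higher in iNKT2 and 5 in iNKT17 cells (43.6% of loci called), and a median of −0.25 against 0.04. Klra1 and Klra5 were higher in iNKT2 cells, by 1.99 (SE 0.25, adjusted p = 5.19e-05) and 1.60 (SE 0.44, adjusted p = 0.0119). Higher in iNKT17 cells were Klrc1 with −1.77 (SE 0.11, adjusted p = 1.61e-07), Klrk1 with −1.14 (SE 0.17, adjusted p = 0.000207), Klrb1c with −0.95 (SE 0.09, adjusted p = 3.14e-06), Cd69 with −0.44 (SE 0.05, adjusted p = 2.39e-05) and Klrd1 with −0.41 (SE 0.18, adjusted p = 0.0915). Klre1 and Klrc2 totals did not pass the test, with −0.09 (SE 0.20, adjusted p = 0.775) and 0.17 (SE 0.20, adjusted p = 0.551), and neither did Klrg1 with 0.09 (SE 0.08, adjusted p = 0.438).

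**Figure D4:**
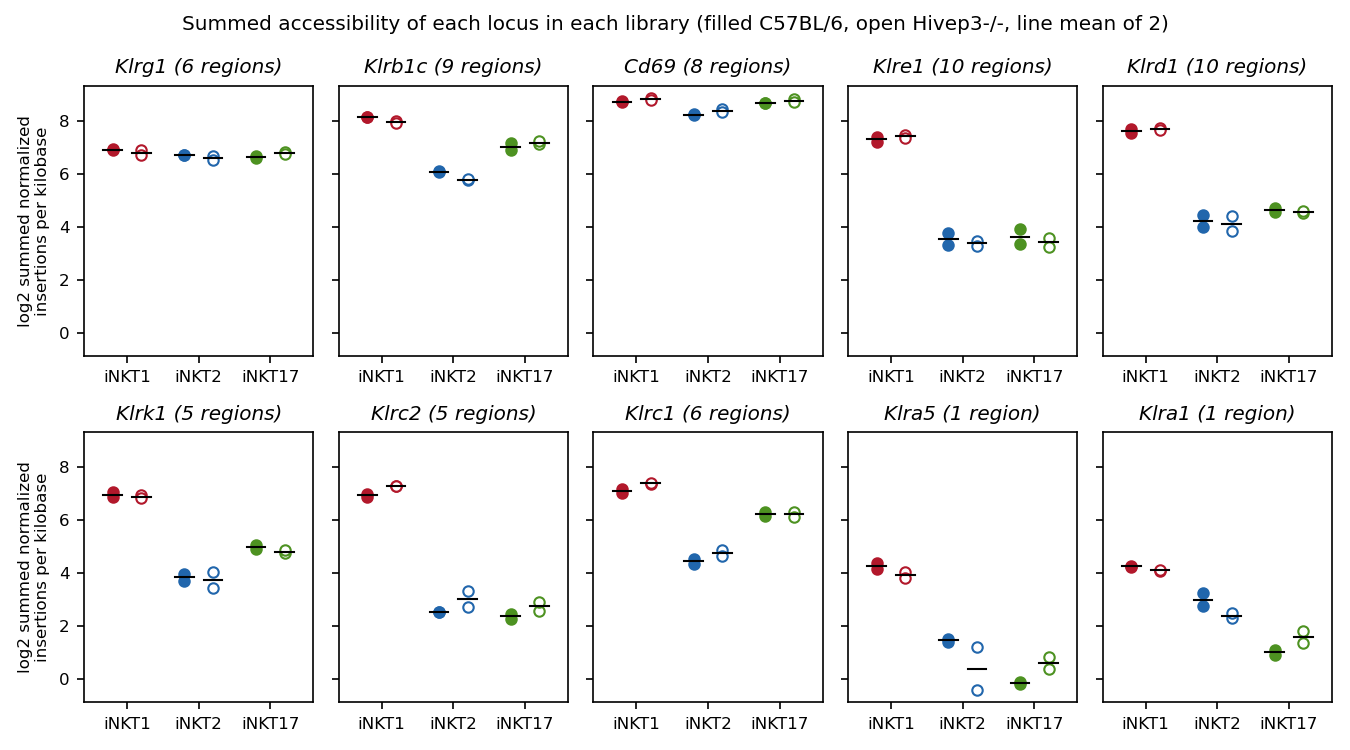
Summed accessibility of each member locus in each library, as log2 of the summed normalized insertions per kilobase (points, filled for C57BL/6 and open for Hivep3-/-, with a line at the mean of 2 libraries). iNKT1 points lie above all others in 8 panels, the Klrc1, Klrk1 and Klrb1c panels show iNKT17 above iNKT2, the Klra1 panel shows the opposite, and the widest gaps between genotype means are those of Klra5 and Klra1 outside iNKT1 cells.

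In Hivep3-/- cells the member regions were also higher in iNKT1 cells. iNKT1 cells were higher than iNKT2 cells at 36 of 49 tested member regions (8.77% of all tested regions) and lower at 0 (8.54%), and higher than iNKT17 cells at 28 of 50 (9.48%) and lower at 0 (9.83%). The median changes were 3.53 and 2.81 (−0.01 and 0.02 over all tested regions), and 3.12 and 1.84 without the 1 and 5 regions at which both libraries of a group were at their lowest value. Of the 36 regions called against iNKT2 cells in each genotype, 33 were shared, which is 91.7% of each, and of the 27 called in C57BL/6 and 28 called in Hivep3-/- against iNKT17 cells, 27 were shared. The share of all called regions found in both genotypes was not computed. Between iNKT2 and iNKT17 cells, 23 regions were tested, of which 0 were higher in iNKT2 (7.33%) and 4 in iNKT17 cells (8.25%). With a pseudocount of 5, 25 regions were called against iNKT2 cells, 18 against iNKT17 cells and 0 between iNKT2 and iNKT17 cells. The latter count was 11 with no filter on low values, 8 with a filter on the mean of all libraries, 11 at 2-fold and 2 with gene bodies alone.

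By locus totals in Hivep3-/- cells, 10 members were higher in iNKT1 than in iNKT2 cells and 0 lower (49.5% of loci called), 8 were higher than in iNKT17 cells and 0 lower (47.4%), and 1 was higher in iNKT2 and 5 in iNKT17 cells (45.5%). The 1 was Klra1, with 0.81 (SE 0.25, adjusted p = 0.0239). The 5 were Klrc1, Klrb1c, Klrk1, Klrd1 and Cd69, which were also higher in iNKT17 cells of C57BL/6.

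The comparison of the genotypes asked whether loss of the zinc finger protein HIVEP3 changed accessibility at these genes within a subset. In iNKT1 cells, where all 50 regions were tested, 0 were higher in Hivep3-/- (0.89% of all tested regions) and 0 lower (0.264%), and 4 had an unadjusted p under 0.05, of which 2 also had an adjusted p under 0.1 with a change under 3-fold. The median change was 0.02, against −0.02 over all tested regions, and the changes ranged from −1.08 to 0.67. All 9 Klrb1c regions had changes below 0 (−1.08 to −0.02) and all 5 Klrc2 regions above 0 (0.04 to 0.49). These loci were picked after their values were seen, and the other loci with several regions had changes of both signs. The spread in these tests pools all 6 groups, so it includes the scatter of regions that were closed in the other subsets. With the iNKT1 libraries alone in the fit, 0 member regions were called as well. In iNKT17 cells 0 of 23 tested regions were higher (0.133%) and 0 lower (0.138%), with 2 at an unadjusted p under 0.05. The percentages are for the 3-fold call. For the counts by unadjusted p, or by adjusted p under 3-fold, the share of all tested regions was not computed. In iNKT2 cells 0 of 20 were higher (0.474%) and 1 was lower (1.2%).

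**Figure D5:**
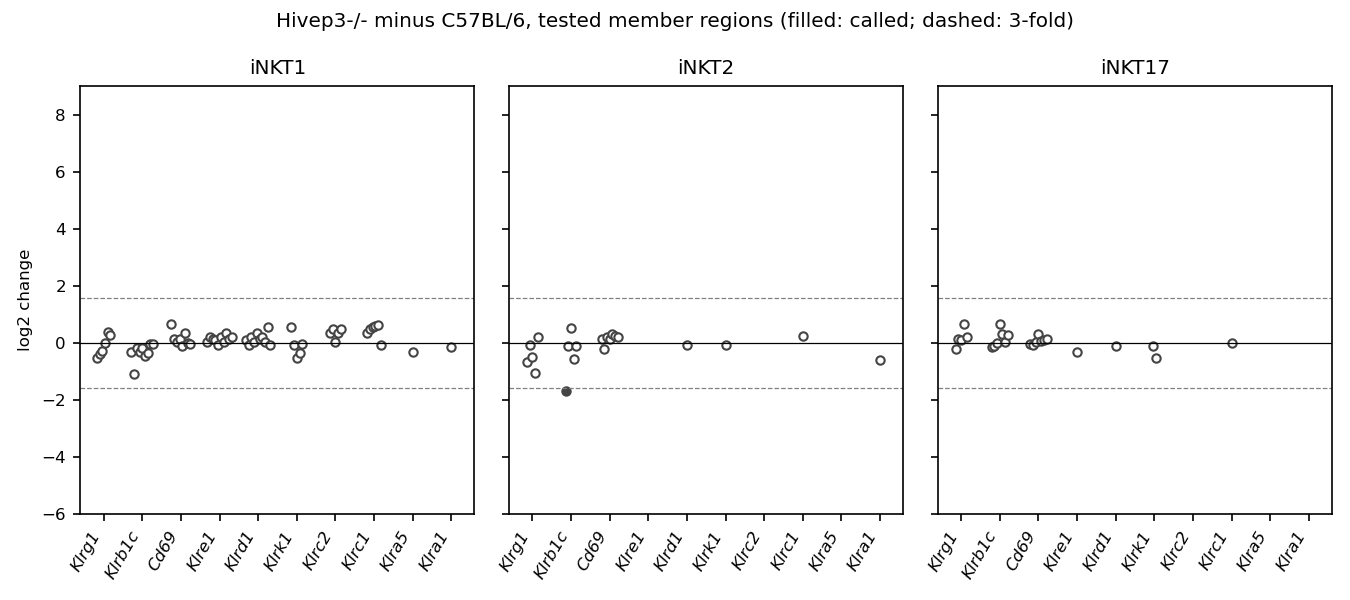
Change of each tested member region between Hivep3-/- and C57BL/6 cells of a subset, by gene, on the log2 scale (filled points were called, dashed lines mark 3-fold), drawn on the same axis as the changes between subsets. Of the points, 1 is filled, a Klrb1c region in iNKT2 cells at −1.69, and the iNKT2 and iNKT17 panels hold 20 and 23 tested regions.

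The called region lay 17.4 kb downstream of the Klrb1c start, beyond the end of the gene (chr6:128770865-128771364, intergenic). Its iNKT2 values were 2.38 and 2.39 in C57BL/6 and 0.37 and 1.02 in Hivep3-/- iNKT2 libraries, a change of −1.69 (SE 0.27, adjusted p = 0.00202). The iNKT1 values were 3.36 and 3.33 in C57BL/6 and 2.30 and 2.23 in Hivep3-/- iNKT1 libraries, a change of −1.08 (SE 0.27, adjusted p = 0.0312), under 3-fold. The iNKT17 values were 2.39 and 2.51 in C57BL/6 and 2.39 and 2.28 in Hivep3-/- iNKT17 libraries, a change of −0.11 (SE 0.27, adjusted p = 0.901). The genotypes did not overlap in iNKT1 and iNKT2 cells and overlapped in iNKT17 cells. Without the first Hivep3-/- iNKT2 library the change in iNKT2 cells was −1.37 (adjusted p = 0.0152, limma), and it was also under 3-fold with pseudocounts of 1 (−1.24) and 5 (−0.62) and with renewed quantile normalization (−1.54). In the same comparison the totals of 3 of the 4 iNKT1 marker loci were lower in Hivep3-/- iNKT2 cells and 0 higher, with a median of −0.45 (13.9% of all loci were called in either direction). Tbx21, which codes for T-bet, had −0.54 (SE 0.07, adjusted p = 0.000547), Nkg7 −0.36 (SE 0.08, adjusted p = 0.0182) and Xcl1 −0.66 (SE 0.18, adjusted p = 0.0372). Of the 4 iNKT2 markers 0 were higher and 1 lower, and of the 3 general iNKT markers 1 was higher and 1 lower. The part of the iNKT1 marker loci in the Klrb1c result was not tested.

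In iNKT17 cells the lowest p belonged to the Cd69 promoter, whose change was 0.31 (SE 0.09, adjusted p = 0.113) and did not pass the test. By locus totals, 0 members were called in iNKT1 (7.76% of loci) and 0 in iNKT17 cells (4.52%), and in iNKT2 cells 1 was higher and 1 lower in Hivep3-/- (13.9%). These were Cd69, with 0.15 (SE 0.05, adjusted p = 0.0882), and Klrb1c, with −0.30 (SE 0.09, adjusted p = 0.0479). The Klrb1c totals in iNKT2 cells were 6.11 and 6.05 in C57BL/6 and 5.76 and 5.79 in Hivep3-/- iNKT2 libraries, and those of Cd69 were 8.19 and 8.25 in C57BL/6 and 8.42 and 8.33 in Hivep3-/- iNKT2 libraries. Both changes were small beside the median change of the members between iNKT1 and iNKT2 cells.

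Interaction terms tested whether the genotype change was unequal between a pair of subsets. Of the 50 member regions tested for iNKT1 against iNKT2, 1 was called (3.06% of all), of 50 for iNKT1 against iNKT17, 0 (1.42%), and of 24 for iNKT2 against iNKT17, 1 (1.02%). The first was the Klrb1c region in Gm44511, with a difference of 3.34 (SE 0.99, adjusted p = 0.0634) that rests on iNKT2 values of 1.23 and 1.23 in C57BL/6 and −0.88 and −4.05 in Hivep3-/- iNKT2 libraries, all under the accessible level. The other was an intron of Klrg1 (chr6:122274481-122274980), with a difference of −1.69 (SE 0.41, adjusted p = 0.0628). Its Hivep3-/- values of 1.38 and 1.52 in iNKT2 cells lay below the C57BL/6 values of 2.56 and 2.41, and its Hivep3-/- values of 3.13 and 2.87 in iNKT17 cells lay above the C57BL/6 values of 2.77 and 1.93. The Klrb1c call was lost without any 1 of 6 libraries, the 4 of iNKT1 and the 2 of C57BL/6 iNKT2 (adjusted p = 0.123 to 0.182, limma), and the Klrg1 call without any 1 of 5 libraries, 3 of iNKT2 and 2 of iNKT17 (adjusted p = 0.115 to 0.168, limma). With pseudocounts of 1 and 5 the Klrb1c difference was 1.04 and 0.15 and the Klrg1 difference −1.38 and −0.81, under 3-fold, and with the compared libraries alone in the fit the Klrg1 call was lost (adjusted p = 0.140, limma).

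The wider pathway was described by lists set with earlier results known. Of 17 other receptor genes of the complex, 13 had a region, and all 13 totals were higher in iNKT1 than in iNKT2 cells of C57BL/6, with a median of 2.76 (46.3% of all loci were called in either direction), and 11 were higher than in iNKT17 cells, with a median of 3.39 (49.1%). The Klri2 total, for a partner of Klre1, was higher by 3.13 (SE 0.18, adjusted p = 7.31e-08) than in iNKT2 cells, whereas Klrb1b, for an inhibitory relative of NK1.1, was higher by 0.87 (SE 0.08, adjusted p = 5.06e-06) than in iNKT2 cells and gave −0.00 (SE 0.08, adjusted p = 0.99) against iNKT17 cells. Several of these loci share regions with members, and the Ly49 genes are near-identical copies, so the counts are not independent.

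For iNKT1 against iNKT2 cells of C57BL/6, 46.3% of all loci being called, the ligand and adaptor genes gave shares near that of all loci. Of 3 measured genes of the Clec2 family, which includes ligands of the Klrb1 receptors, 1 was higher in iNKT1 than in iNKT2 cells and 0 lower, with a median of 0.11. Of 10 measured adaptor and signalling genes, 3 were higher and 1 lower (median 0.08), among them Hcst, the adaptor DAP10 of NKG2D, with 0.22 (SE 0.06, adjusted p = 0.0153), and Tyrobp, the adaptor DAP12, with 0.21 (SE 0.06, adjusted p = 0.0127). These adjacent genes share regions. Of 8 measured ligand genes outside the complex, 4 were higher and 1 lower (median 0.16), with 0.85 (SE 0.08, adjusted p = 4.17e-06) at Cdh1, the E-cadherin gene whose product Klrg1 binds, and −0.21 (SE 0.06, adjusted p = 0.00916) at H2-T23, the gene of the ligand of the CD94 receptors. Against iNKT17 cells 1 Clec2 gene was higher and 0 lower, 3 adaptor genes were higher and 2 lower, and 6 ligand genes were higher and 0 lower (median 0.29), where 49.1% of loci were called. Between iNKT2 and iNKT17 cells, 0, 3 and 4 genes of these lists were higher and 0, 3 and 2 lower (43.6% of loci called). In Hivep3-/- cells, 2 of 3 Clec2 genes were higher in iNKT1 than in iNKT2 cells and 0 lower, with a median of 0.53 (49.5% of loci called). Between genotypes in iNKT1 cells 4 of 10 adaptor genes were higher in Hivep3-/- and 0 lower (7.76% of loci called): Syk, a kinase recruited by DAP12, had 0.73 (SE 0.15, adjusted p = 0.0148), Hcst 0.26 (SE 0.06, adjusted p = 0.0309), Tyrobp 0.25 (SE 0.06, adjusted p = 0.0328) and Fcer1g, a further adaptor, 0.21 (SE 0.06, adjusted p = 0.0465).

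The labelled subsets were checked against marker loci. The 4 iNKT1 markers (Tbx21, Il2rb, Nkg7 and Xcl1) summed to between 1873 and 2017 in iNKT1 libraries on the linear scale, against 820 to 887 in iNKT2 and 1009 to 1039 in iNKT17 libraries. The 4 iNKT2 markers (Izumo1r, Slamf6, Il4 and Gata3) gave ranges that overlapped between iNKT2 (1496 to 1733) and iNKT1 (1238 to 1619) and lay at 814 to 858 in iNKT17 libraries. Il2rb, which codes for the CD122 of the sort, was lower in iNKT1 than in iNKT17 cells, with −0.27 (SE 0.05, adjusted p = 0.000424).

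Of the NK cell markers 1 of 2 had a region, Eomes (Ncr1 had none), whose totals of 70.5 to 91.8 in iNKT1 and 71.2 to 89.9 in iNKT2 libraries overlapped, with 57.9 to 68.3 in iNKT17 libraries. Of the myeloid markers 2 of 3 had a region and summed to 31.5 to 41.9 in iNKT1, 13.5 to 24.6 in iNKT2 and 6.39 to 7.81 in iNKT17 libraries, in iNKT1 libraries mostly from 1 region of Itgam, with 3.98 (SE 0.45, adjusted p = 1.9e-05) against iNKT2 cells. Of the B cell markers 2 of 3 had a region, with 374 to 399 in iNKT1, 437 to 452 in iNKT2 and 332 to 353 in iNKT17 libraries, and of the double-positive thymocyte markers 2 of 3, with 317 to 338, 369 to 389 and 321 to 329. The 3 markers of iNKT cells in general (Zbtb16, Cd3e and Cd3g) summed to 2017 to 2754 in iNKT1, 3695 to 3963 in iNKT2 and 3071 to 3368 in iNKT17 libraries. The part of other cells in the results at the receptor genes was not tested.

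The loci whose totals followed the mean of the members most closely over the 12 libraries, among 9527 loci with at least 3 regions outside chromosome 6, were Ptpre (r = 0.993), Bst1 (r = 0.992), Cmklr1 (r = 0.992), Igsf8 (r = 0.991) and Etfb (r = 0.991). These correlations are descriptions over libraries that share subsets, with no test.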

How the data were processed

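The series holds ATAC-seq of 3 sorted thymic iNKT subsets in each of 2 genotypes, with 2 libraries per group. The deposited table holds log2 values of normalized insertions per kilobase in 63309 regions (mm10). Per the study's methods, the authors trimmed reads to 50 bp (Trimmomatic 0.39), mapped them with the ENCODE ATAC-seq pipeline, merged peaks into 500 bp regions with chromVAR, counted insertions and normalized them with voom, leaving out the Y chromosome and a blacklist. How reads with several matches were placed is not given in the sources used here. The upper quantiles are shared between libraries, so sequencing depth is unknown and no counting interval is given. All value columns were used.

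limma 3.58.1 (R 4.3.3) was fitted to all regions and 12 libraries with a mean for each of 6 groups, which left 6 residual degrees of freedom, and a variance trend. A region entered a comparison if either group reached a mean of 5 on the linear scale. Calls needed a 3-fold change and an adjusted p (Benjamini-Hochberg) under 0.1. Locus totals were sums of linear values from 10 kb before to 10 kb after a gene and had no fold minimum. The fit was tested on simulated data (seed 1). Tables and figures were made with Python 3.11.15, numpy 2.4.6, pandas 2.3.3 and matplotlib 3.10.9. The members and gene lists were chosen with earlier results of these data known. The check of the iNKT17 markers is not reported here.

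Described singly were, for each gene, the region near a start with the highest mean and the called region with the largest change between C57BL/6 subsets, up to 3 regions called between genotypes in each direction (or the lowest p), and regions called in an interaction. Regions outside this rule are said to be so where they appear. Same-numbered libraries, numbered by mouse in the titles, were checked for pairing by the correlation of their deviations from the group means, which was 0.113 to 0.172 between genotypes of a subset and 0.120 to 0.167 between subsets of a genotype. Between groups that differ in both genotype and subset it was 0.0912 to 0.174, so the check does not single out pairing by mouse. Alternatives were other pseudocounts, filters, folds, normalization, spread models and region sets, a replicate block, and leaving out each library.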

Additional observations from a re-analysis of the deposited data

Results flagged for a closer look

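The change between genotypes differed between subsets, by an interaction term in limma, at 2 member regions. At the Klrb1c region beginning at 128790419 the Hivep3-/- minus C57BL/6 change was less negative in iNKT1 than in iNKT2 cells, with a difference of 3.34 on the log2 scale (adjusted p = 0.0634), and the Hivep3-/- iNKT2 libraries were at −0.88 and −4.05, the latter the lowest value of its library. At the Klrg1 intron beginning at 122274481 the difference between iNKT2 and iNKT17 cells was −1.69 (adjusted p = 0.0628), with lower Hivep3-/- values in both iNKT2 libraries and higher ones in both iNKT17 libraries. The causes were not tested.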

How the results depend on the processing

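The counts of called member regions for iNKT1 against the other subsets fell with a pseudocount of 5, which shrinks changes at low values by construction, and with gene bodies alone or a filter on the mean of all libraries, which leave fewer regions. With that pseudocount 20 regions (in place of 36) were called against iNKT2 and 18 (in place of 27) against iNKT17 cells in C57BL/6. In Hivep3-/- the counts were 25 (in place of 36) and 18 (in place of 28). With gene bodies alone the counts were 20 and 17 in C57BL/6 and 19 and 17 in Hivep3-/- against iNKT2 and iNKT17, and with the filter 27 and 18 in C57BL/6 and 27 and 19 in Hivep3-/-. Leaving out single libraries gave 35 to 36 and 27 to 29 in C57BL/6, and 35 to 36 and 28 to 29 in Hivep3-/-.

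For iNKT2 against iNKT17 in C57BL/6 (3 regions), 9 were called with no filter, 6 with a filter on the mean of all libraries, 1 with a pseudocount of 5, 10 at 2-fold, and 3 to 6 without single libraries. In Hivep3-/- (4 regions) the same settings gave 11, 8, 0, 11 and 3 to 5, and gene bodies alone 2. Between genotypes, 2-fold gave 1 region in iNKT1 (in place of 0) and no filter gave 1 in iNKT17 (in place of 0). In iNKT2 (1 region) no filter, the filter on all libraries and 2-fold gave 2 each, pseudocounts of 1 and 5, renewed quantile normalization and gene bodies alone gave 0 each, and single libraries left out gave 0 to 1, with 0 without the first Hivep3-/- library. The 2 interaction calls became 0 with pseudocounts of 1 and 5, 1 with renewed quantile normalization, with no variance trend and with gene bodies alone, and 0 to 3 without single libraries. Where the construction does not show it, the cause was not tested.

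Locus totals gave 52 calls over 90 tests and 47 to 53 without single libraries. With the replicate block the counts were 36, 27 and 3 between C57BL/6 subsets, 36, 28 and 4 between Hivep3-/- subsets, 0, 1 and 0 between genotypes, 2 interactions and 58 locus totals, so the block changed no count of regions. Of 524 recomputed changes of single regions, 493 kept their direction and their side of the thresholds and 31 kept their direction but were no longer called, and of 243 with a library left out, 228 and 15 did so. Signal near the lowest value of each library, from −4.31 to −2.58, limits how large the changes at closed regions can be read.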
